A study of Homo sapiens with 4 samples.

Results

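The HOX genes and the noncoding transcripts of the HOX clusters were followed in G401 cells after loss of BRD9. A row of the deposited gene tables belonged to this set if its symbol began with HOXA, HOXB, HOXC or HOXD, or was HOTAIR, HOTAIRM1 or HOTTIP. This took 57 of the 57820 gene models, 17 in the HOXA cluster, 14 in HOXB, 15 in HOXC and 11 in HOXD. Of these rows, 40 were protein-coding, with HOXC4 listed as 2 gene models, and 17 were antisense or other noncoding transcripts. G401 is an established line of kidney rhabdoid tumour, a childhood cancer that lacks SMARCB1, a core subunit of the SWI/SNF chromatin remodelling complex. RNA sequencing was carried out on 4 libraries: 2 from cells in which BRD9, a bromodomain subunit of a SWI/SNF complex without SMARCB1, was knocked out (BRD9 KO), and 2 from the LacZ control. By the study's methods, knockouts were made in cells that stably expressed Cas9 and were then infected with a guide RNA vector and selected, so both groups would carry Cas9 and have passed the same drug selections. The study describes that clones lacking BRD9 could not be recovered from G401. Whether these libraries came from pools, how many guides were used and the day of harvest are not stated for them. The comparison asks which HOX transcripts differ on loss of BRD9 in cells that already lack SMARCB1.

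HOX genes encode homeodomain transcription factors that tell cells where they lie between head and tail. They sit in clusters in the order in which they act along that axis, with low numbers expressed towards the head and high numbers towards the tail, and genes with the same number in different clusters (paralogs) share sequence and much of their role. Once set in the embryo, the pattern is held by Trithorax proteins, which keep active HOX genes open, and Polycomb proteins, which keep silent ones shut. The noncoding transcripts of the clusters run mostly on the strand opposite to the HOX genes. On GRCh37 (hg19), the HOXA cluster lies on chromosome 7, and the placed rows of the others spanned chromosome 17 from 46605888 to 46806112 (HOXB), chromosome 12 from 54329112 to 54449814 (HOXC) and chromosome 2 from 176957449 to 177055635 (HOXD).

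The libraries held 15053247 to 19559290 estimated counts, with 22985 to 23790 gene models above 0. BRD9 itself (chromosome 5, 850406 to 892916) was measured at 29.4 and 26.8 counts-per-million (CPM, scaled by TMM) in BRD9 KO, against 48.2 and 53.8 CPM in LacZ control (log2 fold change -0.86 ± 0.07 SE, edgeR adjusted p = 2.84e-09), so the transcript was lower in both knockout libraries but still present. SMARCB1 was at 0 counts throughout, a bound of 0.199 CPM (3 counts) in the library with the fewest counts, covering counting error only. Of the kidney lineage markers, PAX2 and LHX1 were lower and CITED1 did not pass the test, with a summed level over the 9 listed genes of 10.9 and 12 CPM in BRD9 KO against 23.2 and 21.8 CPM in LacZ control; PAX8, WT1, SIX2, SALL1, EYA1 and GATA3 were at or near 0. The epithelial keratins KRT8 and KRT18 were higher, and the 4 listed epithelial genes summed to 6482 and 6452 CPM in BRD9 KO against 4930 and 4886 CPM in LacZ control, with EPCAM and CDH1 below 0.4 CPM. Immune markers (PTPRC, CD3E) were at 0, endothelial markers summed to 2.10 and 2.45 CPM in BRD9 KO against 2.65 and 3.12 CPM in LacZ control, with CDH5 at 0, and muscle markers stayed below 0.2 CPM. The part of these other changes in the HOX results was not tested, and in bulk RNA fewer cells expressing a gene and less RNA per cell cannot be told apart.

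A larger share of the tested HOX transcripts than of all genes was lower after BRD9 loss, and every fall of at least 1.5-fold that was called lay in the HOXB or HOXC cluster. Of the 57 rows, 45 had enough counts to be tested, 19 were lower in BRD9 KO, 1 was higher (HOXB13) and 25 were not called at an adjusted p under 0.05. Among all 15288 genes tested, 38.6% were called in either direction, 18.1% lower and 20.5% higher, whereas 42.2% of the tested HOX rows were called lower. Their median log2 fold change was -0.40, against -0.01 over all genes tested, and 42 of the 45 values lay below 0. By size, 10 rows were called lower by at least 1.5-fold, where 4.22% of all genes were, and 4 of them (HOXB6, HOXB8, HOXB9 and HOXC-AS2) by at least 2-fold, where 2.01% were. Both BRD9 KO libraries lay below both LacZ control libraries for 32 of the 45 tested rows and above them for 2, where 34.5% and 34.1% of all genes did so. All HOX rows together summed to 429 and 443 CPM in BRD9 KO, against 518 and 507 CPM in LacZ control. The 20 called rows kept their direction under every alternative fit, but the count of lower rows did not hold. DESeq2 called 12 lower (9.51% of all genes), without HOXA9, HOTAIRM1, HOXB2, HOXB5, HOXC13 and HOXC-AS3 and with no adjusted p for HOXC-AS5. Limma on log2(TPM + 1) called 7 lower (7.23% of all genes), namely HOXB6, HOXB7, HOXB8, HOXB9, HOXC6, HOXC11 and HOXC-AS2.

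**Figure D1:**
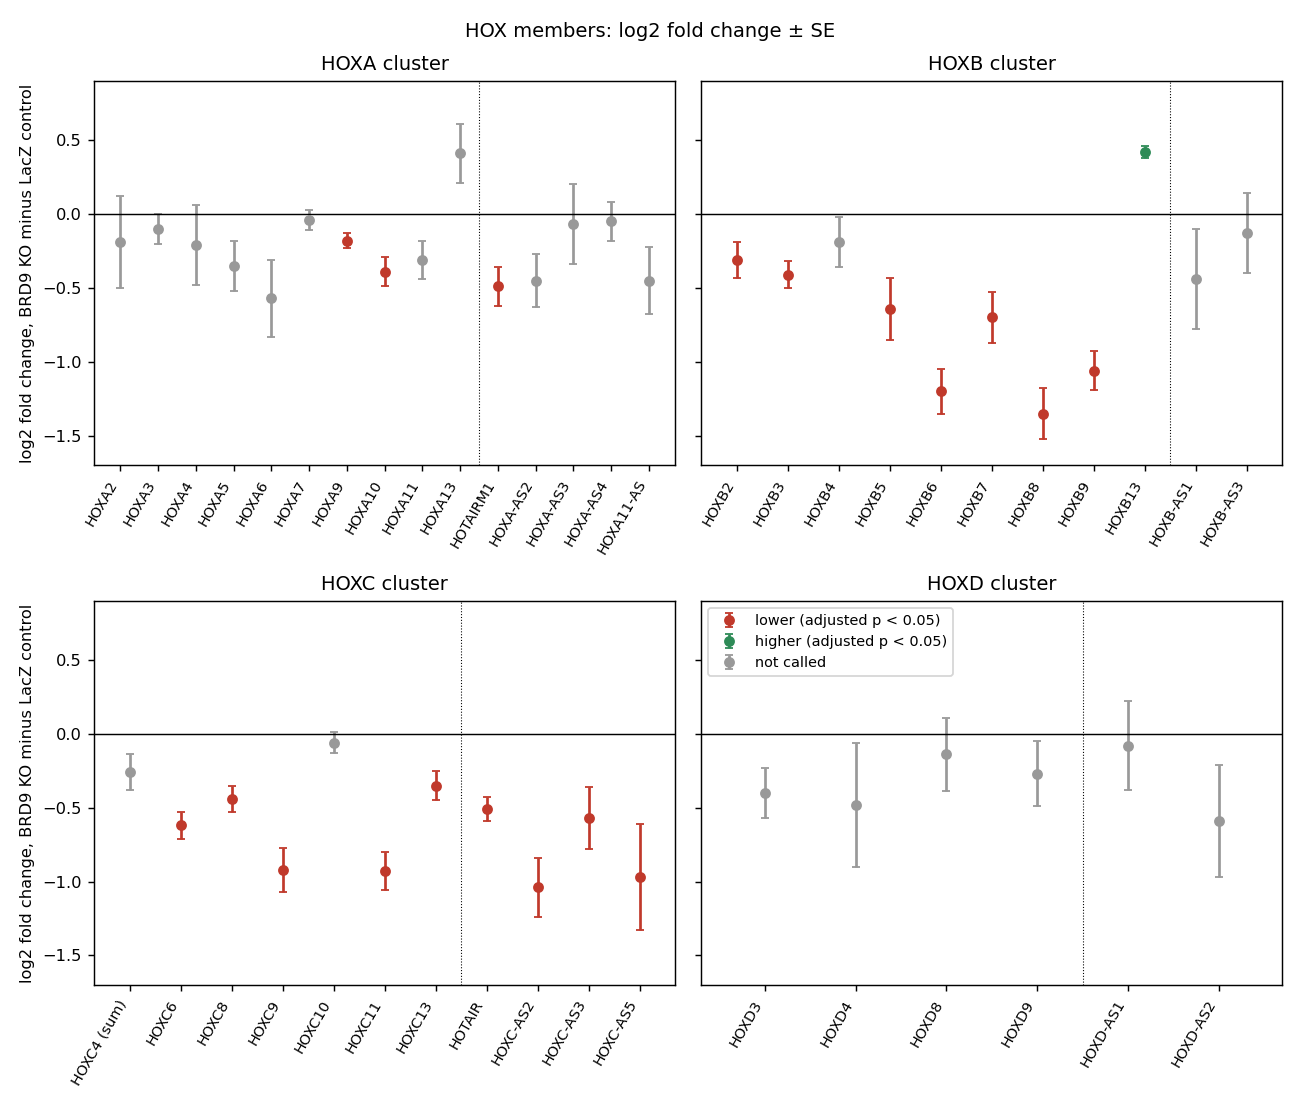
Log2 fold change of the tested HOX transcripts described here (y axis, BRD9 KO minus LacZ control, bars ± 1 SE from edgeR), by cluster and in order of paralog number along the x axis, with noncoding transcripts to the right of the dotted line; the 2 HOXC4 models are drawn as their sum. The points called lower lie mostly in HOXB and HOXC, none lie in HOXD, and HOXB13 is the 1 point called higher, at 0.42.

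In the HOXA cluster the share of lower members was close to that of all genes. Of its 16 tested rows, 3 were lower (18.8%, against 18.1% of all genes) and none higher, the median log2 fold change was -0.20, and the summed level in BRD9 KO was 88.4% of that in LacZ control. HOXA9, a posterior gene best known for its role in blood stem cells and leukaemia, was the most abundant HOX gene per length in these cells, at 55.8 and 53.7 TPM (transcripts-per-million, after division by length) in BRD9 KO against 62.3 and 61.7 TPM in LacZ control. On the count scale HOXA9 stood at 50.3 and 49.7 CPM in BRD9 KO against 56.3 and 57.3 CPM in LacZ control (log2 fold change -0.18 ± 0.05 SE, edgeR adjusted p = 0.00338). This was a small difference, but the groups did not overlap on either scale. Its neighbour HOXA10, which patterns the uterus and hindlimb, stood at 14.1 and 15.7 CPM in BRD9 KO against 21.2 and 17.8 CPM in LacZ control (log2 fold change -0.39 ± 0.10 SE, edgeR adjusted p = 0.00342). The gap for HOXA10 was wide to LacZ control replicate 1 and narrow to replicate 2, and without replicate 1 the call was lost (edgeR adjusted p = 0.114). HOXA9 and HOXA10 share exons on their own strand with a model named RP1-170O19.20, and on the other strand with HOXA-AS4. Reads of the shared parts could only be divided by the quantifier.

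The windows before the start sites of 3 HOXA genes are shown because HOXA9 was the most abundant HOX gene per length and was called lower, HOXA6 had a larger log2 fold change that was not called (-0.57, against -0.18 for HOXA9), and HOXA13 had a positive one that was not called. Each is the 200 bases just before the RefSeq start (GRCh38.p14 table), on the minus strand of chromosome 7, placed on GRCh37 by exact match at 27205157 to 27205356 (HOXA9), 27187394 to 27187593 (HOXA6) and 27239711 to 27239910 (HOXA13). Capitals mark matches on either strand to the motifs searched, described after the sequences.
HOXA9: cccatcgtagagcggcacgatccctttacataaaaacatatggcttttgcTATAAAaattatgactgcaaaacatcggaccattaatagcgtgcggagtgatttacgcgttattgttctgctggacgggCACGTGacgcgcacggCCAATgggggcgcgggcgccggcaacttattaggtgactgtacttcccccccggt
HOXA6: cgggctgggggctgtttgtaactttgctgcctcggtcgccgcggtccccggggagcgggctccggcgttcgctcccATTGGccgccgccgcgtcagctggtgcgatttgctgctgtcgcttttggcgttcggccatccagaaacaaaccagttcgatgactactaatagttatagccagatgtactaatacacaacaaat
HOXA13: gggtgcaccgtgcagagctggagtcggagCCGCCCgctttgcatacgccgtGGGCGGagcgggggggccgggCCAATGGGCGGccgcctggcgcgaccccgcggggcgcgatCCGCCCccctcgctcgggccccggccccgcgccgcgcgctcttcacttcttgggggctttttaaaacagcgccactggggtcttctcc
Counted back from the start site, HOXA9 carries TATAAA at -150, CACGTG at -71 and CCAAT at -55. HOXA6 carries ATTGG, the other strand of CCAAT, at -124. HOXA13 carries 4 copies of the GC box, at -171, -149, -123 and -88, and CCAAT at -128. The motifs searched were the CCAAT box (CCAAT), the TATA box (TATAAA), the E-box (CACGTG), the GC box (GGGCGG), AP-1 (TGANTCA), the cyclic AMP response element (TGACGTCA), ETS (CCGGAAG) and a PBX-HOX composite (TGATTNAT), on both strands of windows from 250 bases before to 50 after the start; none contains another. Of 56 HOX symbols, 30 had a window in the table, 20 of them protein-coding with 19 distinct windows, since HOXC4 and HOXC5 share one. Of the called protein-coding genes, HOXA9 and HOXA10 had a window, and HOXB2, HOXB3, HOXB5 to HOXB9, HOXB13, HOXC6, HOXC8, HOXC9, HOXC11 and HOXC13 had none, so the shares that follow do not describe the called genes of HOXB and HOXC. CCAAT was found in 17 of the 20 windows (85.0%), against 35.7% of all 27305 promoters, and CACGTG in 8, against 7.4%. TATAAA was found in 4 of the HOX windows against 12% of all promoters, GGGCGG in 10 against 44.6%, and TGATTNAT in 2 against 2.9%, while the AP-1, cyclic AMP and ETS letters were in none of the 20, against 7.8%, 2.0% and 10.7% of all promoters. CCAAT stood in windows of genes that were lower (HOXA9, HOXA10), of genes that were not called (HOXA6, HOXA13) and of genes at 0 counts (HOXD10, HOXD12, HOXD13) alike.

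The other HOXA genes were not called. The anterior genes HOXA2 and HOXA3, which pattern the hindbrain and the pharyngeal arches, had log2 fold changes of -0.19 ± 0.31 and -0.10 ± 0.10 (SE). HOXA2 averaged 1.85 CPM in BRD9 KO and 2.14 CPM in LacZ control, and HOXA3 averaged 12.2 CPM in BRD9 KO and 13 CPM in LacZ control. Among the middle genes, HOXA4 (2.13 CPM in BRD9 KO, 2.46 CPM in LacZ control), HOXA5 (4.35 CPM in BRD9 KO, 5.56 CPM in LacZ control), HOXA6 (1.75 CPM in BRD9 KO, 2.62 CPM in LacZ control) and HOXA7 (26.5 CPM in BRD9 KO, 27.3 CPM in LacZ control) had log2 fold changes of -0.21, -0.35, -0.57 and -0.04, and of these HOXA5 and HOXA6 had both BRD9 KO libraries below both LacZ control libraries. Among all genes tested, 34.5% had the groups apart in this direction. HOXA6 was called when at least 1 CPM was required in all 4 libraries (edgeR adjusted p = 0.044). HOXA11, needed for kidney development in the mouse together with its paralogs, averaged 7.23 CPM in BRD9 KO and 8.98 CPM in LacZ control (-0.31 ± 0.13 SE, edgeR adjusted p = 0.0678). HOXA13, the most posterior HOXA gene, pointed the other way from its neighbours, at 4.67 and 4.10 CPM in BRD9 KO against 2.92 and 3.66 CPM in LacZ control, but did not pass the test (0.41 ± 0.20 SE, edgeR adjusted p = 0.111).

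Of the noncoding HOXA transcripts, HOTAIRM1 was the only one of 5 tested to be called. HOTAIRM1 has been linked to HOXA activation in blood cells. This transcript stood at 7.03 and 8.27 CPM in BRD9 KO against 9.49 and 11.8 CPM in LacZ control (log2 fold change -0.49 ± 0.13 SE, edgeR adjusted p = 0.00688). The call was lost without BRD9 KO replicate 1 (edgeR adjusted p = 0.0711) and without LacZ control replicate 2 (0.19). As for every antisense transcript here, reads shared with a gene on the other strand cannot be told apart, because the library kit does not mark strand. HOXA-AS2 averaged 3.72 CPM in BRD9 KO and 5.07 CPM in LacZ control (-0.45 ± 0.18 SE) and HOXA11-AS averaged 2.30 CPM in BRD9 KO and 3.16 CPM in LacZ control (-0.45 ± 0.23 SE), each with the groups apart but not called. Both BRD9 KO libraries lay below both LacZ control libraries in 34.5% of all genes tested. HOXA-AS3 (2.01 CPM in BRD9 KO, 2.10 CPM in LacZ control) and HOXA-AS4 (8.12 CPM in BRD9 KO, 8.45 CPM in LacZ control) had log2 fold changes of -0.07 and -0.05. HOTTIP, at the HOXA13 end, had 5 and 7 counts in BRD9 KO and 3 and 2 in LacZ control, too few to test.

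The HOXB cluster split into a run of lower genes and 1 higher gene at its far end. Of its 11 tested rows, 7 were lower and HOXB13 was higher, where 18.1% of all genes were lower and 20.5% higher. The called falls were largest for HOXB5 to HOXB9, which are neighbours in the cluster and pattern the trunk: all 5 were lower by at least 1.5-fold. HOXB8 changed most of all tested HOX rows called lower, at 2.92 and 3.49 CPM in BRD9 KO against 7.76 and 8.46 CPM in LacZ control (log2 fold change -1.35 ± 0.17 SE, edgeR adjusted p = 2.11e-06), which puts its mean in BRD9 KO at 39.5% of that in LacZ control. HOXB6 stood at 4.31 and 4.65 CPM in BRD9 KO against 9.49 and 11 CPM in LacZ control (-1.20 ± 0.15 SE, edgeR adjusted p = 1.77e-06). HOXB9 stood at 7.75 and 7.59 CPM in BRD9 KO against 18.2 and 14 CPM in LacZ control (-1.06 ± 0.13 SE, edgeR adjusted p = 1.48e-06). In each of these 3 genes the BRD9 KO libraries were close together and far below the nearer control. The exons of HOXB8 and HOXB9 overlap those of no other annotated gene among those tested. By contrast, HOXB6 shares exons with HOXB3 and, on the other strand, with HOXB-AS3, which also overlaps exons of HOXB5. HOXB7, whose mouse counterpart is active in the ureteric bud of the kidney, stood at 4.87 and 3.74 CPM in BRD9 KO against 7.63 and 6.48 CPM in LacZ control (-0.70 ± 0.17 SE, edgeR adjusted p = 0.00276). HOXB5 stood at 3.08 and 2.45 CPM in BRD9 KO against 4.71 and 3.96 CPM in LacZ control (-0.64 ± 0.21 SE, edgeR adjusted p = 0.0227). Without LacZ control replicate 1, HOXB7 (edgeR adjusted p = 0.0693) and HOXB5 (0.18) were no longer called, and HOXB5 was also lost without BRD9 KO replicate 2 (0.142).

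**Figure D2:**
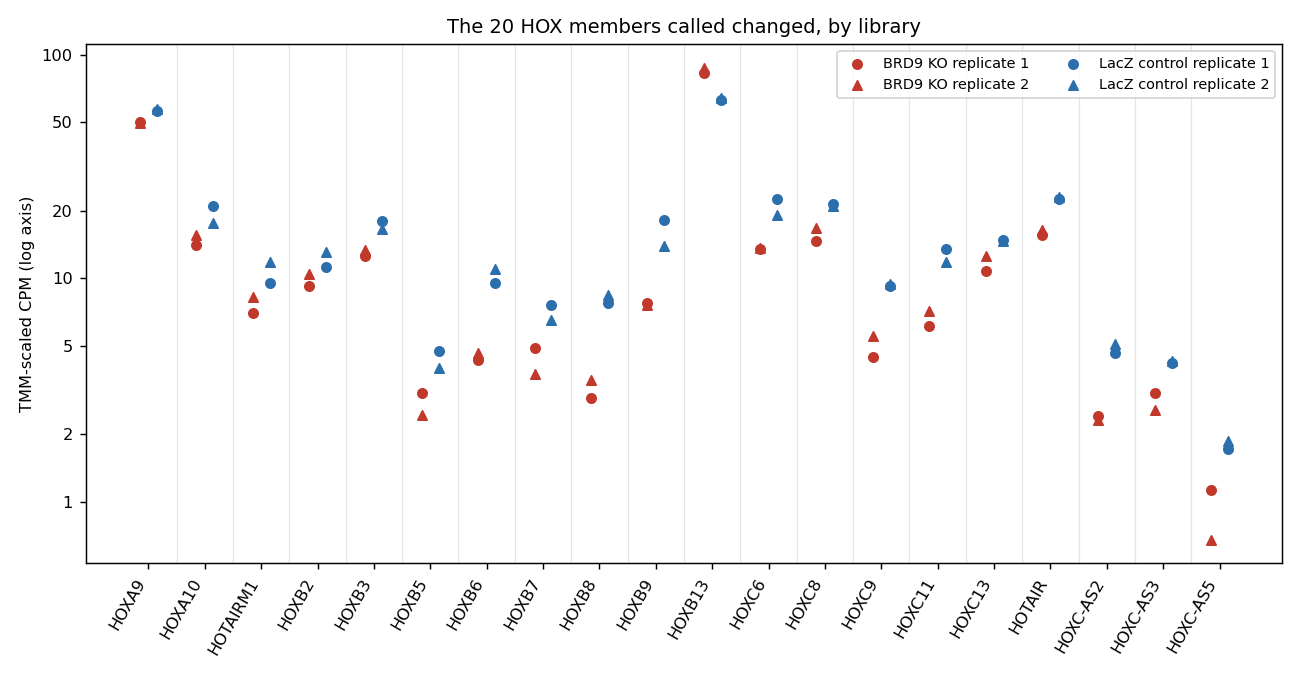
Level of the 20 called HOX transcripts in each library (y axis, TMM-scaled CPM on a log axis), with BRD9 KO in red to the left of LacZ control in blue, circles for replicate 1 and triangles for replicate 2. The groups do not overlap in any of the 20, which were picked by the test on these same libraries. Among all genes tested, 34.5% had BRD9 KO below and 34.1% above without overlap. HOXB13 is the 1 called gene with BRD9 KO above, at 83.0 and 88.0 CPM against 63.2 and 64.0 CPM in LacZ control.

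Of the anterior HOXB genes, HOXB2 and HOXB3 were called lower, each by less than 1.5-fold. HOXB3 stood at 12.6 and 13.4 CPM in BRD9 KO against 18.0 and 16.6 CPM in LacZ control (log2 fold change -0.41 ± 0.09 SE, edgeR adjusted p = 0.00153). The exons of HOXB3 overlap those of HOXB4 and HOXB6 on the same strand, and those of HOXB-AS1 and HOXB-AS3 on the other. HOXB-AS1 also overlaps exons of HOXB2. Shared reads could only be divided by the quantifier. HOXB2, which with HOXB3 acts in the hindbrain, stood at 9.23 and 10.5 CPM in BRD9 KO against 11.3 and 13.1 CPM in LacZ control (-0.31 ± 0.12 SE, edgeR adjusted p = 0.0387). The groups lay close together for HOXB2, and the call was lost without BRD9 KO replicate 1 (edgeR adjusted p = 0.27) and without LacZ control replicate 2 (0.363). HOXB4, known for expanding blood progenitors, overlapped between the groups, at 5.28 and 6.61 CPM in BRD9 KO against 7.76 and 5.82 CPM in LacZ control (-0.19 ± 0.17 SE). HOXB-AS1 (1.11 CPM in BRD9 KO, 1.51 CPM in LacZ control) and HOXB-AS3 (2.12 CPM in BRD9 KO, 2.34 CPM in LacZ control) were not called, with log2 fold changes of -0.44 and -0.13. HOXB1 and HOXB-AS4 had 0 counts in all 4 libraries and HOXB-AS2 had 3 to 9.

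HOXB13, a posterior gene active in the prostate and distal gut, lies apart from the rest of its protein-coding cluster, with 98405 bases between HOXB9 and HOXB13 on the map. HOXB13 stood at 83.0 and 88.0 CPM in BRD9 KO against 63.2 and 64.0 CPM in LacZ control (log2 fold change 0.42 ± 0.04 SE, edgeR adjusted p = 7.08e-08). The HOXB cluster in BRD9 KO summed to 93.5% of LacZ control with this gene and to 63.4% without it. PRAC1 and PRAC2 lie in the interval between HOXB9 and HOXB13. PRAC1 was lower, at 1.38 and 1.65 CPM in BRD9 KO against 3.58 and 3.12 CPM in LacZ control (-1.14 ± 0.26 SE, edgeR adjusted p = 0.00133). PRAC2, which ends close to HOXB13 on the other strand, did not pass the test, at 6.98 and 7.84 CPM in BRD9 KO against 7.36 and 7.98 CPM in LacZ control (-0.06 ± 0.14 SE).

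The HOXC cluster had the largest share of lower members, 9 of 12 tested, where 18.1% of all genes were lower. The median log2 fold change was -0.60, and the cluster summed to 110 and 116 CPM in BRD9 KO against 157 and 151 CPM in LacZ control. HOXC9 and HOXC11 fell most among its protein-coding genes. HOXC11 stood at 6.10 and 7.16 CPM in BRD9 KO against 13.5 and 11.8 CPM in LacZ control (-0.93 ± 0.13 SE, edgeR adjusted p = 7.18e-06). HOXC9, which sets thoracic identity in the spinal cord, stood at 4.46 and 5.51 CPM in BRD9 KO against 9.29 and 9.48 CPM in LacZ control (-0.92 ± 0.15 SE, edgeR adjusted p = 4.89e-05). HOXC9 shares exons on its own strand with HOXC6, and reads of the shared parts could only be divided by the quantifier. Between HOXC9 and HOXC11 along the chromosome lies HOXC10, which was not called, with 28.4 and 27.6 CPM in BRD9 KO against 29.7 and 29.0 CPM in LacZ control (-0.06 ± 0.07 SE, edgeR adjusted p = 0.467). HOXC10 was the most abundant HOXC gene per length, at 36.9 TPM on average in BRD9 KO and the same in LacZ control.

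HOXC6 and HOXC8, trunk genes also used in motor neurons, were lower too. HOXC6 stood at 13.6 and 13.7 CPM in BRD9 KO against 22.8 and 19.3 CPM in LacZ control (log2 fold change -0.62 ± 0.09 SE, edgeR adjusted p = 2.41e-05), and HOXC8 at 14.7 and 16.9 CPM in BRD9 KO against 21.6 and 21.0 CPM in LacZ control (-0.44 ± 0.09 SE, edgeR adjusted p = 0.000475). The exons of HOXC6 overlap, on the same strand, those of HOXC4, HOXC9 and a model named RP11-834C11.14, so shared reads could only be divided by the quantifier. HOXC13, the hair and nail gene at the posterior end, fell less, at 10.8 and 12.6 CPM in BRD9 KO against 14.9 and 14.7 CPM in LacZ control (-0.35 ± 0.10 SE, edgeR adjusted p = 0.0112). The groups were apart in all 3, as they were in this direction in 34.5% of all genes tested. HOXC13 lost its call without BRD9 KO replicate 1 (log2 fold change -0.23) and without either LacZ control, replicate 1 (-0.33) or 2 (-0.36). HOXC4 is listed as 2 gene models between which the quantifier divided shared reads: the model ENSG00000198353.6 had 156 and 37 counts in BRD9 KO and 139 and 172 in LacZ control, and the model ENSG00000273266.1 had 5 and 114 counts in BRD9 KO and 16 and 7 in LacZ control. Neither model was called (-0.88 ± 0.74 SE and 2.25 ± 2.18 SE), and neither value can be read as a change of HOXC4. Summed after the values were seen, HOXC4 stood at 8.26 and 9.25 CPM in BRD9 KO against 10.3 and 10.7 CPM in LacZ control and did not pass the test (-0.26 ± 0.12 SE, edgeR adjusted p = 0.0848). HOXC5, at 8 and 17 counts in BRD9 KO and 6 and 5 in LacZ control, and HOXC12, at 0 and 5 in BRD9 KO and 0 and 10 in LacZ control, had too few counts to test.

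All 4 tested noncoding HOXC transcripts were lower, where 18.1% of all genes were. HOTAIR, a long noncoding RNA from between HOXC12 and HOXC11 that has been studied as a partner of Polycomb proteins, stood at 15.7 and 16.5 CPM in BRD9 KO against 22.8 and 23.1 CPM in LacZ control (log2 fold change -0.51 ± 0.08 SE, edgeR adjusted p = 3.48e-05). Its replicates were close together in each group and its exons overlap those of no other annotated gene among those tested. HOXC-AS2 stood at 2.41 and 2.33 CPM in BRD9 KO against 4.64 and 5.10 CPM in LacZ control (-1.04 ± 0.20 SE, edgeR adjusted p = 0.000411). Its exons overlap those of HOXC6 and HOXC9 on the opposite strand, both lower as well, and the reads of the shared parts cannot be told apart. HOXC-AS3, opposite HOXC10, stood at 3.08 and 2.57 CPM in BRD9 KO against 4.18 and 4.26 CPM in LacZ control (-0.57 ± 0.21 SE, edgeR adjusted p = 0.034). HOXC10 was not called, and the difference between the pair was not tested. HOXC-AS5, opposite HOXC13, stood at 1.13 and 0.674 CPM in BRD9 KO against 1.72 and 1.86 CPM in LacZ control (-0.97 ± 0.36 SE, edgeR adjusted p = 0.0378), with 11 to 31 counts a library. Leaving out BRD9 KO replicate 2 or either LacZ control, replicate 1 and then 2, removed the calls of HOXC-AS3 (edgeR adjusted p = 0.17, 0.11 and 0.136, in that order) and of HOXC-AS5 (0.264, 0.129 and 0.187). HOXC-AS1 had 5 to 10 counts and was not tested.

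The HOXD cluster had no called member among its 6 tested rows. All 6 log2 fold changes lay below 0, with a median of -0.33, and the cluster summed to 13.4 and 12.2 CPM in BRD9 KO against 16.7 and 15.3 CPM in LacZ control. HOXD3 averaged 4.27 CPM in BRD9 KO and 5.65 CPM in LacZ control (-0.40 ± 0.17 SE, edgeR adjusted p = 0.0705), HOXD8 averaged 2.26 CPM in BRD9 KO and 2.49 CPM in LacZ control (-0.14 ± 0.25 SE) and HOXD9 averaged 2.98 CPM in BRD9 KO and 3.63 CPM in LacZ control (-0.27 ± 0.22 SE). In these 3 genes and in HOXD-AS2 both BRD9 KO libraries lay below both LacZ control libraries, where 34.5% of all genes tested did so. HOXD4 (0.828 CPM in BRD9 KO, 1.14 CPM in LacZ control), HOXD-AS1 (1.68 CPM in BRD9 KO, 1.77 CPM in LacZ control) and HOXD-AS2 (0.829 CPM in BRD9 KO, 1.26 CPM in LacZ control) had log2 fold changes of -0.48, -0.08 and -0.59. At these levels the standard errors of the 3 ran from 0.30 to 0.42, so a change of the size seen in HOXB2 or HOXC13 was not detectable. HOXD1 had 0 counts in BRD9 KO and 1 in each LacZ control library. The posterior genes HOXD10, HOXD11, HOXD12 and HOXD13, which pattern the limb ends and the genital tubercle, had 0 counts in every library, as did HOXB1 and HOXB-AS4, the same bound of 0.199 CPM applying to each.

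**Figure D3:**
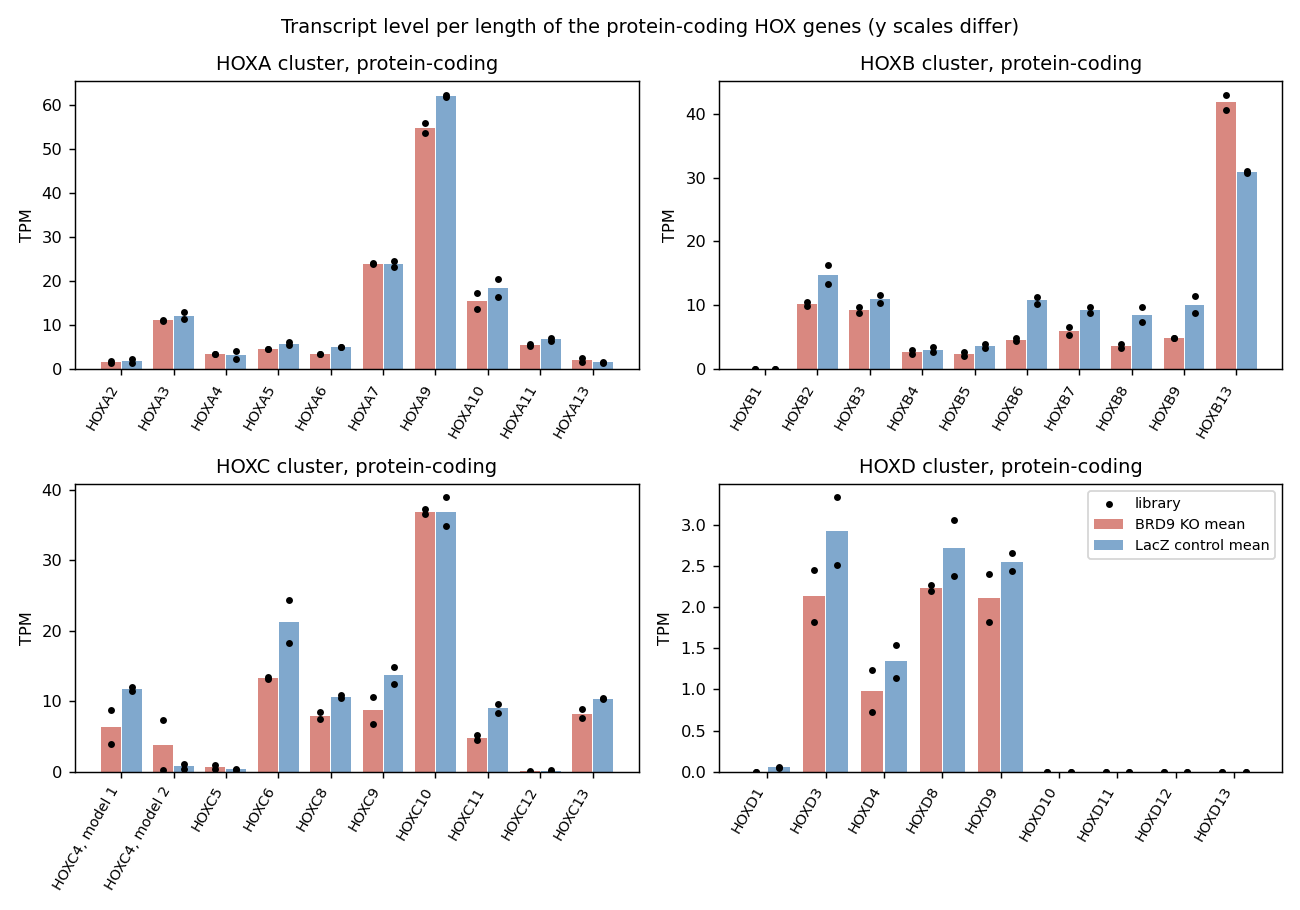
Level of the protein-coding HOX genes described here per length (y axis, TPM, with a scale of its own in each panel), by cluster in order of paralog number, with BRD9 KO bars to the left of LacZ control bars, bars at the mean and points at the 2 libraries. HOXA9, HOXB13 and HOXC10 stand above the other genes of their clusters in both groups, and HOXD10 to HOXD13 are at 0.

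Set side by side per length, a few posterior genes dominated. HOXA9 was highest in both groups, at 54.8 TPM on average in BRD9 KO and 62.0 TPM in LacZ control. HOXB13 and HOXC10 came next, and their order differed between the groups: in BRD9 KO HOXB13 (40.6 and 43.0 TPM) lay above HOXC10 (37.3 and 36.5 TPM), and in LacZ control HOXB13 (30.8 and 31.0 TPM) lay below HOXC10 (38.9 and 34.9 TPM). Among protein-coding genes HOXA7 followed, at 23.9 TPM in BRD9 KO and 23.8 TPM in LacZ control. In LacZ control it did not differ from HOXC6 (24.4 and 18.2 TPM) beyond the spread. HOTAIRM1, at 19.5 and 24.7 TPM in BRD9 KO against 26.7 and 33.1 TPM in LacZ control, was the most abundant noncoding transcript, and in LacZ control its libraries lay on either side of HOXB13. The protein-coding genes HOXB6, HOXB8, HOXB9 and HOXC11, all with called falls, were lower by level than these, between 3.54 and 4.84 TPM on average in BRD9 KO and between 8.54 and 10.7 TPM in LacZ control. HOXC9, which also had a called fall, averaged more, at 8.69 TPM in BRD9 KO and 13.7 TPM in LacZ control.

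By paralog number, lower calls were found among anterior, middle and posterior genes, but not in every paralog. Of the 6 tested rows of paralogs 1 to 3, 2 were lower, of the 15 of paralogs 4 to 8, 6 were lower, and of the 11 of paralogs 9 to 13, 6 were lower and 1 was higher, where 18.1% of all genes were lower. None of the 5 tested rows of paralog 4, which count HOXC4 as 2 models, was called. Paralog 6 (HOXA6, HOXB6, HOXC6) summed in BRD9 KO to 58.6% of LacZ control by the means. Paralog 13 went the other way through HOXB13 and summed to 98.5 and 105 CPM in BRD9 KO against 81.1 and 82.3 CPM in LacZ control. Among protein-coding rows 14 of 32 tested were lower, and among noncoding rows 5 of 13. No difference between clusters, paralogs or classes was tested.

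HOX proteins bind DNA with partners of the TALE homeodomain family, PBX, MEIS and PKNOX. The cofactor list held these genes and also TGIF1, TGIF2 and PBXIP1, and most of its tested genes differed. Of 9 tested genes of the list, 5 were lower and 3 were higher, where 18.1% of all genes were lower and 20.5% higher. The median log2 fold change of the list was -0.31. MEIS2, the most abundant MEIS gene here on the count scale, stood at 89.4 and 93.3 CPM in BRD9 KO against 129 and 134 CPM in LacZ control (-0.53 ± 0.03 SE, edgeR adjusted p = 2.35e-10). MEIS3 was lower at 14 and 13.2 CPM in BRD9 KO against 22.3 and 19.7 CPM in LacZ control (-0.62 ± 0.09 SE, edgeR adjusted p = 1.62e-05). PBX2 (-0.31), PBX3 (-0.33) and TGIF2 (-0.46), a TALE repressor, were also lower. PBX4 (0.64), PKNOX1 (0.33) and TGIF1 (0.22) were higher, PBXIP1 was not called (0.01), and MEIS1 and PKNOX2 were at or near 0 in every library.

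The genes for the proteins that hold HOX genes on or off had medians close to that of all genes, of which 18.1% were lower, 20.5% higher and 38.6% called in either direction. Of 20 Trithorax-side activators, 6 were lower (PSIP1, KMT2A, KMT2C at -0.24, DOT1L at -0.13, KDM6B at -0.32, KAT7 at -0.14) and 3 higher (KMT2D at 0.10, AFF4 at 0.09, WDR5 at 0.10, all log2 fold changes), with a median of -0.03 and no call beyond 1.5-fold. PSIP1, which tethers the KMT2A and menin complex to chromatin, fell most, at 247 and 249 CPM in BRD9 KO against 325 and 322 CPM in LacZ control (log2 fold change -0.38 ± 0.02 SE, edgeR adjusted p = 1.24e-11). KMT2A, the histone methyltransferase long tied to HOX maintenance, stood at 180 and 185 CPM in BRD9 KO against 209 and 201 CPM in LacZ control (-0.17 ± 0.03 SE, edgeR adjusted p = 5.61e-05), and its partner MEN1 did not pass the test (-0.03 ± 0.05 SE). Of 24 Polycomb genes, 9 were lower (EZH2, EZH1 at -0.16, PHF19 at -0.24, RING1 at -0.26, PCGF2 at -0.18, CBX2 at -0.31, CBX7 at -0.41, PHC1 at -0.29, KDM2B at -0.16) and 3 higher (SUZ12 at 0.09, CBX6 at 0.28, CBX8 at 0.38), with a median of -0.05. EZH2, the methyltransferase that writes the Polycomb mark, stood at 38.6 and 39.9 CPM in BRD9 KO against 43.1 and 45.6 CPM in LacZ control (-0.18 ± 0.05 SE, edgeR adjusted p = 0.0136). CBX2 and CBX7 were lower and CBX6 and CBX8 higher, all 4 of them readers of that mark.

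**Figure D4:**
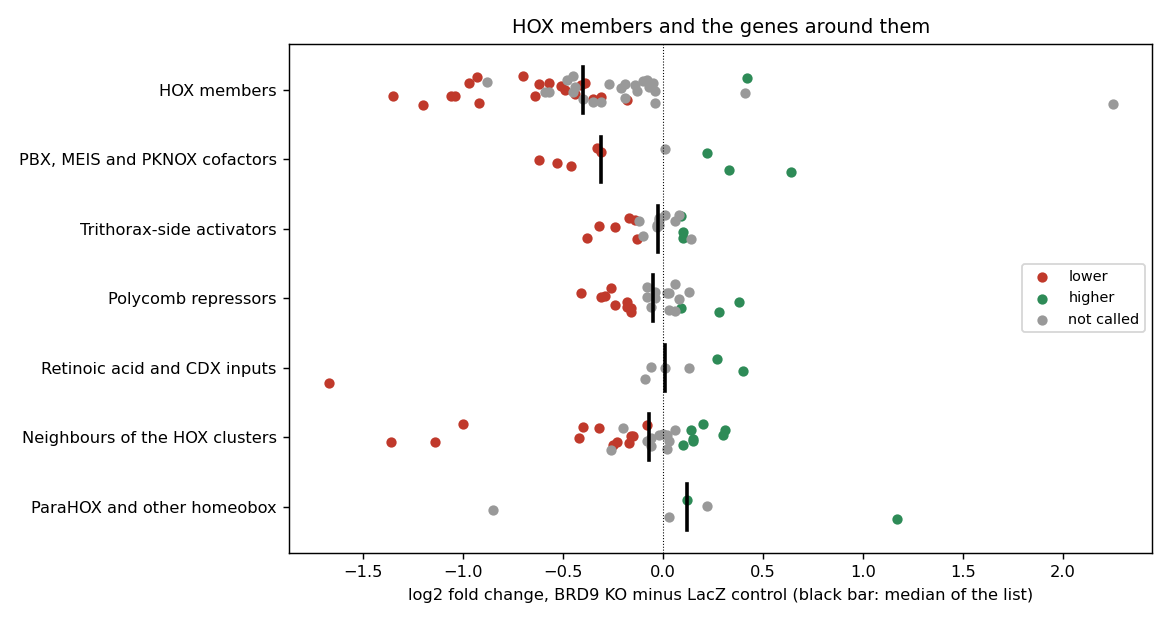
Log2 fold change (x axis, BRD9 KO minus LacZ control) of the tested HOX rows and of the tested genes of 6 lists around them, each point a gene or gene model, red for lower, green for higher and grey for not called, black bars at the list medians. The HOX rows and the cofactors have medians of -0.40 and -0.31, the Trithorax, Polycomb and retinoic acid lists lie around 0, and the grey HOX point at 2.25 is the divided HOXC4 model.

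Retinoic acid and the CDX factors set HOX expression in the embryo, and little of that input was measurable. Only 7 of the 20 listed genes had counts to test. STRA6, the membrane receptor for retinol uptake, was lower, at 3.74 and 2.69 CPM in BRD9 KO against 10.3 and 10.4 CPM in LacZ control (log2 fold change -1.67 ± 0.16 SE, edgeR adjusted p = 9.34e-08). CRABP2 (0.27), which carries retinoic acid to its receptors, and DHRS3 (0.40), which lowers retinoic acid supply, were higher. The receptors RARA, RARG and RXRA were not called (0.13, -0.09 and 0.01), and CDX1, CDX2, CDX4 and the synthesis enzymes ALDH1A1, ALDH1A2 and ALDH1A3 were at or near 0.

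Genes that flank the clusters did not follow one direction. Of 30 tested neighbours, 12 were lower and 7 higher, where 18.1% of all genes were lower and 20.5% higher, with a median log2 fold change of -0.07. The largest falls beside PRAC1 were in NFE2, a blood transcription factor on the HOXC chromosome, at 4.31 and 3.37 CPM in BRD9 KO against 10.5 and 9.30 CPM in LacZ control (-1.36 ± 0.16 SE, edgeR adjusted p = 1.04e-06), and in GIP, a gut hormone gene beyond HOXB13, at 2.0 and 2.33 CPM in BRD9 KO against 4.31 and 4.32 CPM in LacZ control (-1.0 ± 0.22 SE, edgeR adjusted p = 0.00098). NFE2 lies 236081 bases outside the HOXC span and GIP 229804 bases outside the HOXB span. Smaller falls were measured for SKAP2 (-0.15), HNRNPA2B1 (-0.08), CBX1 (-0.23), CALCOCO2 (-0.16), IGF2BP1 (-0.40), CALCOCO1 (-0.32), CBX5 (-0.25), HNRNPA1 (-0.42) and KIAA1715 (-0.17). TAX1BP1 (0.14), SNX10 (0.15), ATP5G1 (0.20), UBE2Z (0.30), NFE2L1 (0.31), COPZ1 (0.10) and NFE2L2 (0.15) were higher. EVX1 and EVX2, homeobox genes at the posterior ends of HOXA and HOXD, were at 0. The miRNA genes of the clusters had next to no counts. MIR10B, MIR196A1, MIR196A2, MIR196B and MIR615 had effective lengths of 0 to 36 bases. Hardly any read could be assigned to models so short, so their counts do not show whether they were expressed. Of the ParaHOX and other homeobox genes, 5 were tested and 2 were higher, where 20.5% of all genes were: GBX2, at 25.0 and 25.0 CPM in BRD9 KO against 10.5 and 11.6 CPM in LacZ control (1.17 ± 0.09 SE, edgeR adjusted p = 1.68e-09), and MEOX1 (0.12).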

How the data were processed

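RNA sequencing data from 4 libraries of G401 cells were used, 2 labelled BRD9 KO and 2 labelled LacZ control. Per the labels and the study's methods, total RNA went into a NEBNext Ultra library kit, which does not mark strand; the labels name a Direct-zol extraction and the methods Trizol with column cleanup. The authors aligned the reads with STAR (hg19) and made the deposited expected counts (estimated counts) with RSEM, which divides reads shared between gene models; the submitters' notes also name DESeq2. The deposited TPM values, effective lengths and posterior standard deviations of the counts come from the same step by the authors, and no versions are given in the sources used here. Reads of paralogs, overlapping genes and antisense partners carry extra uncertainty: the posterior standard deviation reached 7.84% of the count at most among called HOX rows.

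Expected counts were rounded. Totals were 15053247 to 19559290. Replicates of a group differed by more than sampling noise (chi-square per degree of freedom 1.59 in BRD9 KO, 1.62 in LacZ control) and were kept apart; by the methods they are biological replicates, but no label names separate cultures, so the p-values reflect the spread between libraries, which may be technical. BRD9 KO was compared with LacZ control by the two-sided quasi-likelihood test of edgeR 4.0.16 (R 4.3.3) with TMM scaling, filterByExpr (15288 genes kept), robust dispersions and Benjamini-Hochberg adjustment over all genes tested, calling a change at an adjusted p under 0.05. CPM values are TMM-scaled; SEs follow from the F statistic. Positions come from GENCODE v44 on GRCh37, matched by Ensembl identifier (1 of the HOXC4 models had no match). Exon overlaps were searched with bedtools 2.31.1 among the tested genes alone, in the transcripts listed for them, and motifs with Python 3.11.15. HOXA-AS4, HOXC-AS5 and HOXD-AS1 are older symbols of HOXA10-AS, HOXC13-AS and HAGLR. The test was tried on simulated counts.

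The HOX set, the lists of cofactors, Trithorax and Polycomb proteins, retinoic acid and CDX inputs, neighbours and ParaHOX genes, the cell type markers and the tests were chosen with earlier results of these data known. Tested HOX rows were named, apart from a result that is not reported here but counts in the totals, then the called genes of each list, or otherwise its most abundant; MEN1, PBXIP1, PRAC2, the receptors and the enzymes at 0 were named with their values known. The alternatives tried were DESeq2 1.42.0, limma-voom and limma on log2(TPM + 1) (limma 3.58.1), RLE size factors, library totals alone, no filter, at least 1 CPM in all 4 libraries, the replicate number as block, leaving out each library, an adjusted p under 0.01 and, added after seeing the data, the HOXC4 models summed. Same-numbered replicates did not deviate together (correlation -0.0535 across genes), so the numbers were not taken as pairs.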

Additional observations from a re-analysis of the deposited data

How the results depend on the processing

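With the replicate block, 19 HOX rows were lower, 1 was higher and 6109 of all genes were called; the numbers are not known to pair the samples. Of the 20 called HOX rows, 7 (HOXB6, HOXB8, HOXB9, HOXB13, HOXC6, HOXC11 and HOXC-AS2) were called under all 13 alternative fits. The count of 19 lower rows moved to 12 with DESeq2 and to 7 with limma on log2(TPM + 1), and the 5901 calls over all genes to 3339 and 2464. DESeq2 gave no adjusted p for 4 HOX rows, HOXC-AS5 among them, which were left out of the counts of kept and lost calls. Leaving out each library gave 13 (without LacZ control replicate 1) to 17 lower rows, 1 to 2 higher rows and 4195 to 4960 calls over all genes; the additional higher row was the model ENSG00000273266.1 of HOXC4, without BRD9 KO replicate 1. An adjusted p under 0.01 left 14 lower rows. Of 574 log2 fold changes of HOX rows under alternatives, 519 kept direction and call, 37 lost and 6 gained a call, and 12 turned direction, none of them of a called row. Without 1 library the range ran from -0.54 to 0.26 for HOXA2, -0.45 to 0.11 for HOXA4, -0.18 to 0.06 for HOXA-AS3, -0.17 to 0.06 for HOXA-AS4, -0.39 to 0.03 for HOXB4, -0.39 to 0.08 for HOXB-AS3, -1.48 to 3.25 for the HOXC4 model ENSG00000273266.1 and -0.20 to 0.05 for HOXD-AS1, the turned values coming without LacZ control replicate 1 (HOXA2, HOXB4, HOXD-AS1), LacZ control replicate 2 (HOXA4, HOXA-AS3) or BRD9 KO replicate 2 (HOXA-AS4, HOXB-AS3, HOXC4). On log2(TPM + 1), HOXA4 came to 0.12, HOXA7 to 0.01, HOXC10 to 0.00 and HOXD-AS1 to 0.35. The cause was not tested. With 2 libraries a group, the low rows of HOXD carried SEs of up to 0.42, and 12 HOX rows could not be tested. Fits without 1 library take the spread of the remaining pair for both groups.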

Other observations

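Counts and TPM differ where the quantifier assigned a gene another mix of transcripts in each library, since TPM divides by the effective length. HOXD-AS1 had 32 and 28 counts in BRD9 KO and 29 and 27 in LacZ control, but effective lengths of 1994 and 2946 bases in BRD9 KO against 4161 bases in each LacZ control library, and so 1.37 and 0.97 TPM in BRD9 KO against 0.76 and 0.64 TPM in LacZ control. HOXC9 had effective lengths of 1087 and 860 bases in BRD9 KO against 1237 and 1044 in LacZ control, and its fall was -0.92 on counts and -0.62 on log2(TPM + 1), a scale that also shrinks low values through the pseudocount of 1. HOTAIR had effective lengths of 1763 and 1582 bases in BRD9 KO against 1916 and 1895 in LacZ control, and 14.8 and 17.3 TPM in BRD9 KO against 19.7 and 20.1 TPM in LacZ control. The source of these length differences was not tested.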
